A study of Homo sapiens with 2 samples.

Results

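NRF-1 (nuclear respiratory factor 1) binding was mapped in U251, an established human glioblastoma line, and the data described here are the 1000 promoter peaks with the highest significance in control cells. The peaks were selected on their −log10 q, the significance that the peak caller gave each of them. From the 18014 peaks of the control list, those on chromosomes 1 to 22 and X that came within 1 kb of the start of a protein-coding transcript were taken, which left 11690 promoter peaks, and the 1000 with the highest −log10 q were kept, hereafter the top promoter peaks. Before chromatin was collected, the cells received by transient transfection either a control siRNA (siControl) or 1 directed at AATF (siAATF), a transcriptional cofactor whose connection with NRF-1 was the subject of the study. The siControl and siAATF cells were both profiled with the same NRF-1 antibody, and the siAATF list held 18454 peaks, of which 11643 were promoter peaks. The design text of the series names U138, another glioblastoma line, whereas the sample labels name U251, and the labels were followed. Each condition had 1 peak list labelled as replicate 1, so no spread between replicates could be computed, no test between conditions was possible, and the intervals given are exact Clopper-Pearson 95% intervals that cover counting error only. The number of reads behind each list was unknown. The lists carry no expression values, so neither the depletion of AATF nor the markers of the cell line could be checked from them. The study shows a western blot of the transfected U251 cells used for ChIP-seq, which is not part of these data.

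NRF-1 binds DNA as a dimer and recognises a GC-rich palindrome that contains CpG dinucleotides, and methylation of these CpGs blocks its binding. The factor was found through the cytochrome c promoter and is best known for its sites at nuclear genes of the respiratory chain, of heme synthesis and of the machinery that copies and transcribes mitochondrial DNA. It also occupies promoters of many genes with no mitochondrial role, among them genes of the cell cycle, DNA replication and RNA processing. Most of its sites lie in CpG-island promoters that lack a TATA box.

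The top promoter peaks carried the NRF-1 palindrome or a close relative of it. Among the palindromes of 10 bases, the word with the greatest difference in frequency between the top and the other promoter peaks was the known NRF-1 core, in which each arm of 5 bases is the reverse complement of the other. The words below are this palindrome and the 5 of its variants with 1 substitution that were found most often in the central 300 bp of the top promoter peaks, searched on both strands. They are shown because they define the core used throughout. Capitals mark the whole word, positions are counted from 1 at its 5′ end, and a substitution names the base of the palindrome, the position and the base found.
Palindrome: GCGCATGCGC
Substitution T6G: GCGCAGGCGC
Substitution T6C: GCGCACGCGC
Substitution C10T: GCGCATGCGT
Substitution T6A: GCGCAAGCGC
Substitution G9T: GCGCATGCTC
The most frequent of them was not the perfect palindrome but T6G, which was present in 368 top promoter peaks (36.8%) and in 4.42% of the other 10690 promoter peaks. T6C was present in 21.6% of the top and 2.33% of the other promoter peaks. The perfect palindrome was less frequent than these, in 16.7% (14.4 to 19.2) of the top and 1.57% of the other promoter peaks. A substituted word and its reverse complement are different sequences and were counted together, whereas the palindrome is its own reverse complement. The shares are therefore not frequencies per sequence. C10T, T6A and G9T were found in 8.3%, 6.8% and 6.2% of the top promoter peaks, and each was in under 1% of the others.

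The 10 promoter peaks of highest −log10 q show these words in place. The 30 bases around the core nearest to the peak midpoint are printed on the strand of the gene, from hg19, with the core in capitals.
POLR2J3 (chr7:102213103-102213132, minus strand): gggttttctcGCGCCTGCGCaagatcctcc
MINK1 (chr17:4736641-4736670, plus strand): cggtcgctccGCGCCTGCGCaggagaggtg
ENTPD6 (chr20:25176282-25176311, plus strand): tctcccgcctGCGCATGCGCggctgggtgc
STK32C (chr10:134145443-134145472, minus strand): ggggtgtggtGCGCCTGCGCtggggcgggg
SMARCA4 (chr19:11071521-11071550, plus strand): agggacgggcGCGCACGCGCgccgggagcg
PLEKHA8 (chr7:30067971-30068000, plus strand): gcggcgccctGGGCATGCGCgagcgcgtcc
ZNF583 (chr19:56915437-56915466, plus strand): tgaaccagctGCGCCTGCGCaggtggaacg
N6AMT1 (chr21:30257678-30257707, minus strand): cgcacgccctGCGCACGCGCatggaacgca
XRCC2 (chr7:152373254-152373283, minus strand): ctggcgcagtGCGCACGCGCgcgggtgggc
TMEM141 (chr9:139685776-139685805, plus strand): ccttccgcctGCGCCTGCGCaggcccgctc
The word GCGCCTGCGC is T6G read on its other strand, and it or its complement stands at POLR2J3, MINK1, STK32C, ZNF583 and TMEM141. The perfect palindrome is nearest to the midpoint at ENTPD6 only. The word at PLEKHA8 is the complement of G9C, a variant that is not among those printed above.

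The 10 genes have varied functions. POLR2J3, a member of the gene family of an RNA polymerase II subunit, had the highest −log10 q of all promoter peaks, 116 in siControl and 97.9 in siAATF, and ranked 1 and 9 in the respective lists. Ranks here and below count from 1 at the highest −log10 q among the promoter peaks of a list. MINK1, a serine/threonine kinase, ranked 2 in siControl with 114 and 1 in siAATF with 104. The peak at ENTPD6, an enzyme that hydrolyses nucleoside diphosphates, ranked 3 and 23, and that at the kinase STK32C ranked 4 and 2. SMARCA4, the BRG1 ATPase of the SWI/SNF chromatin remodelling complexes, ranked 5 and 6, with −log10 q of 110 and 98.4. PLEKHA8, a lipid transfer protein of the Golgi, ranked 6 in siControl and 128 in siAATF, the greatest fall among the 10. The zinc finger gene ZNF583 ranked 7 and 70, the methyltransferase gene N6AMT1 8 and 11, XRCC2, a gene of homologous recombination, 9 and 44, and TMEM141, a small transmembrane protein, 10 and 34. All 10 stayed within the first 128 promoter peaks of the siAATF list.

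The value that selected the peaks ran from 72.8 to 116, with a median of 81.8, whereas the other promoter peaks had a median of 13.4. It reached 100 at 44 peaks. The boundary did not fall at a gap. The last 3 peaks inside were at PFN1, the actin-binding protein profilin, with a −log10 q of 72.86, TFG, a component of the secretory pathway, with 72.84, and ZSCAN32, a zinc finger gene, also with 72.84. The first 3 outside were at TBC1D10B, a regulator of Rab GTPases, with 72.82, DDX11, a DNA helicase, with 72.79, and P4HA1, a collagen prolyl hydroxylase, with 72.79. Of the top promoter peaks, 911 were also among the 1000 peaks of highest −log10 q anywhere in the genome, and the last of them ranked 1096 over all peaks.

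High significance and high fold enrichment marked largely different promoters. Fold enrichment, the ratio of reads to the local background, had a median of 8.25 at the top promoter peaks (4.98 to 11.7) and of 8.27 at the next 1000, against 6.26 at all the other promoter peaks. Of the top promoter peaks, 168 were among the 1000 promoter peaks of highest fold enrichment, and 76 were among the 1000 widest. Any 1000 of the 11690 promoter peaks make up 8.55% of them. The overlap by fold enrichment was therefore partial but above that share, and the overlap by width was near it. Their median width was 1022 bp (640 to 1737), against 800 bp for the others. SDHA, which ranked 23 by −log10 q, had a fold enrichment of 7.47, under the median of the top promoter peaks, whereas PRPF39, a splicing factor that ranked 133, had 10.9.

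The core, taken from here on as the palindrome with up to 1 mismatch, was found in the central 300 bp of 84.1% (81.7 to 86.3) of the top promoter peaks. The share over all siControl promoter peaks was 17.8%. It was 62.6% for the next 1000, 11.6% for all other promoter peaks, 9.64% at the canonical starts of all 19478 coding genes with one, and 1.94% at the 7941 canonical starts without a peak within 1 kb. The share fell with rank, from 87.2% in the first 500 promoter peaks to 81% in the second, 70.8% in the third and 54.4% in the fourth. The siAATF promoter peaks, ranked on their own values, gave 87.6%, 80.4%, 73.2% and 53.6% in the same bins. The 2 curves lay within each other's intervals in these 4 bins. Since the core was picked from the same peaks, these shares describe the selection and do not test it.

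**Figure D1:**
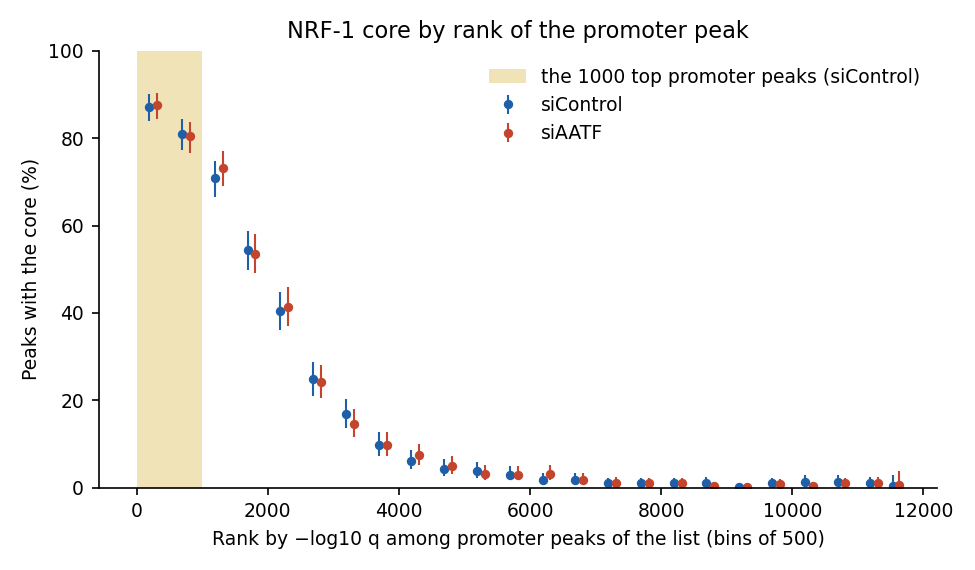
Share of promoter peaks with the NRF-1 core in their central 300 bp (vertical axis, percent) against rank by −log10 q in bins of 500 (horizontal axis), for siControl and siAATF. Points are shares, set slightly apart sideways for the 2 lists, vertical lines are exact 95% intervals for counting error, and the shaded band marks the 1000 top promoter peaks. The share falls from 87.2% in the first siControl bin to 54.4% in the fourth and 6.2% in the ninth, and the siAATF points follow the same course.

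The mismatches were not spread evenly over the palindrome. A core whose only mismatch was at position 5 or 6, the centre where the arms meet, was present in 58.6% of the top promoter peaks and in 7.44% of the others. Words with their only mismatch at position 4 or 7 were in 0.5% of the top promoter peaks. Of the palindromes that can be built from the same letters in another order, 59 were counted, each with up to 1 mismatch. Their median frequency was 3.4% in the top and 3.26% in the other promoter peaks. The most frequent of them reached 15.2% in the top promoter peaks. The NRF-1 palindrome, counted in the same way, was in 84.1% and 11.6%, but it was chosen from these same windows, so its lead is not a test.

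**Figure D2:**
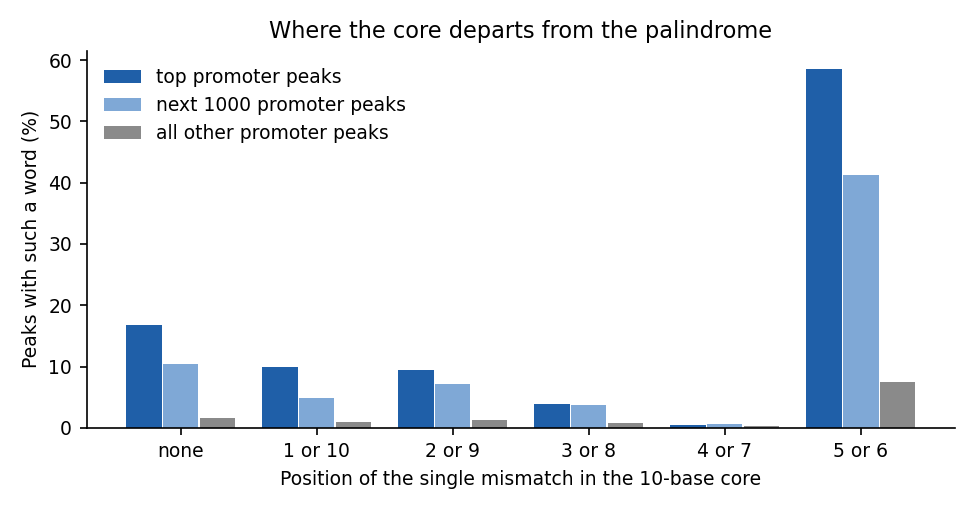
Share of peaks (vertical axis, percent) whose central 300 bp hold the perfect palindrome (none) or a word with its only mismatch at the given pair of mirrored positions (horizontal axis), for the top promoter peaks, the next 1000 and all other promoter peaks. Central mismatches at positions 5 or 6 were in 58.6% of the top promoter peaks, more than the 16.7% with the perfect palindrome, and mismatches at positions 4 or 7 were in 0.5%. Each mismatch class pools several words with their reverse complements, whereas the palindrome is a single word.

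Many of the top promoter peaks held more than 1 core. In the central 300 bp, 243 of them (24.3%) had at least 2 cores that did not overlap, against 9.4% of the next 1000 and 1.13% of all other promoter peaks, and 9 had at least 4. Neighbouring cores were 53 bp apart in the median from centre to centre (quartiles 33.5 and 83.5, range 10 to 277, 311 pairs). Over whole peaks, the greatest number was 7, at ADI1, an enzyme of methionine salvage, and at C17orf97, an uncharacterised gene, followed by 6 at RFX2, a transcription factor of ciliated cells. At ADI1 neighbouring cores were 55 to 63 bp apart over 371 bp, and the one nearest to the midpoint lay in an intron. At C17orf97 they were 43 to 91 bp apart over 329 bp, and the one nearest to the midpoint lay outside canonical coding transcripts. The 200 bases below, from hg19 and on the strand of the gene, show 5 cores at C17orf97 and 4 at ADI1 in capitals, and they are printed because the repeat unit around each core can be read from them.
C17orf97 (chr17:259781-259980, plus strand): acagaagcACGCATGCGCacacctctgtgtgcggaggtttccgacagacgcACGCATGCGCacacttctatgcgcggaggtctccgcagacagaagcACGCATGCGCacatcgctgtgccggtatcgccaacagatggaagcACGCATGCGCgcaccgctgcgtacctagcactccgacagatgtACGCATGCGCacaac
ADI1 (chr2:3522649-3522848, minus strand): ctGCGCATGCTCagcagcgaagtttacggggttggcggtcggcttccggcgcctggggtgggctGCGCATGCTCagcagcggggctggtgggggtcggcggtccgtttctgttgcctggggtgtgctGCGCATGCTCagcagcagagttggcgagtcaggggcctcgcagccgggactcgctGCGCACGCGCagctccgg
All 5 cores shown at C17orf97 are the same word, the complement of C10T. At ADI1 3 are G9T and the fourth is T6C. The ADI1 peak ranked 40 in siControl and 25 in siAATF, that at C17orf97 243 and 290, and that at RFX2 82 and 114. The perfect palindrome occurred 2 times in 15 of the top promoter peaks. The highest of these were at N6AMT1, RCBTB2 and RSRP1, which ranked 8, 64 and 114 in siControl and 11, 28 and 33 in siAATF.

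A smaller group of strong peaks had no core. In 109 of the top promoter peaks no word within 1 mismatch of the palindrome was found over the whole peak. At 105 of these (96.3%, 90.9 to 99) a word with 2 mismatches was present, beside 89.8% (85.6 to 93.1) of the 274 peaks without a core among the next 1000 and 55.5% (54.4 to 56.5) of the 9062 among all other promoter peaks. The most frequent of these words was GCGCAGCCGC, in 23 of the 109 peaks. The 4 peaks with none lay at SNX8, a sorting nexin (rank 451), MAP2, a neuronal microtubule protein (rank 671), ERBIN, a scaffold protein (rank 877), and CDC42SE2, an effector of CDC42 (rank 895). The highest ranks without a core were at VPS13A, a lipid transfer protein (35 in siControl, 39 in siAATF), CAPN7, a calpain protease (67 and 24), ABRAXAS1, a subunit of a BRCA1 complex (78 and 163), UBE4B, a ubiquitin ligase (84 and 67), and NRF1 itself (96 and 106). The word with 2 mismatches nearest to the midpoint is shown in capitals for VPS13A, the highest of these, for NRF1, and for CYCS, the gene of cytochrome c, through which the factor was first described.
VPS13A (chr9:79792417-79792446, plus strand): gcgcagacttGCGCACGCGTcgtgagagcg
NRF1 (chr7:129251697-129251726, plus strand): ttcagccccgGCGCAGCCGCaacacgccgc
CYCS (chr7:25165031-25165060, minus strand): acatgctcgcCAGCATGCGCgcgcaggtcc
These words lay 25, 23 and 65 bp from the midpoint of the respective peak.

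Words of other promoter factors were counted in the same 300 bp on both strands, each searched on its own so that 2 may overlap. GGGCGG, the word of SP and KLF factors, was in 82.7% of the top and 77% of the other promoter peaks, CCGGAAG (ETS factors) in 17.4% and 14.5%, CCAAT (NF-Y) in 21.2% and 24.6%, AAGATGGC (YY1) in 5.6% and 4.1%, and TGACGTCA (CREB and ATF factors) in 2.7% and 2.25%. CACGTG, the E-box of MYC and USF factors, was in 12% (10.1 to 14.2) of the top and 7.77% (7.27 to 8.3) of the other promoter peaks. In the next 1000 promoter peaks, GGGCGG was in 78.5%, CCGGAAG in 18.2%, CCAAT in 25.8% and AAGATGGC in 5.3%. TGACGTCA was in 2.7% of the next 1000 and CACGTG in 9.9% (8.12 to 11.9). Words of regulated promoters were rare. TATAAA was in 0.6% of the top and 2.13% of the other promoter peaks, against 15.3% of canonical starts without a peak, and TGANTCA (AP-1) was in 1%, 3.09% and 7.38%, respectively. Top promoter peaks with and without the core had similar shares, for example 17.7% (15.2 to 20.5) and 15.7% (10.4 to 22.3) for CCGGAAG. The GC content of the window had a median of 71.7% in the top and 70.7% in the other promoter peaks, and the ratio of observed to expected CpG was 0.935 and 0.879. For the next 1000 these medians were 69.7% and 0.929.

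The top promoter peaks sat on the transcription start. The median distance from the midpoint of the peak to the nearest coding start was 41 bp (quartiles 15 and 92), and 77.3% of midpoints were within 100 bp of one, against 49 bp and 72.4% for the next 1000 and 82 bp and 56.2% for all other promoter peaks. In the 891 peaks with a core, the core nearest to the midpoint lay 20 bp upstream of the nearest start in the median, with quartiles of −74 and 0 bp, and 74.4% of these cores were upstream, against 75.5% for the next 1000. A window of 30 bp around the start, from −20 to +9, held 36.7% (33.5 to 40) of the cores, against 26.7% (24.5 to 28.9) of the cores of the other promoter peaks. This window covers the fullest bins of 10 bp in both groups, so the contrast is a description and not a test. At POLR2J3 and TMEM141 the core was 18 and 5 bp upstream, at N6AMT1 it was on the start, and at XRCC2 it was 9 bp downstream. On canonical coding transcripts, 672 cores (75.4%) lay outside every transcript, 110 in an intron, 98 in a UTR and 11 in coding sequence.

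**Figure D3:**
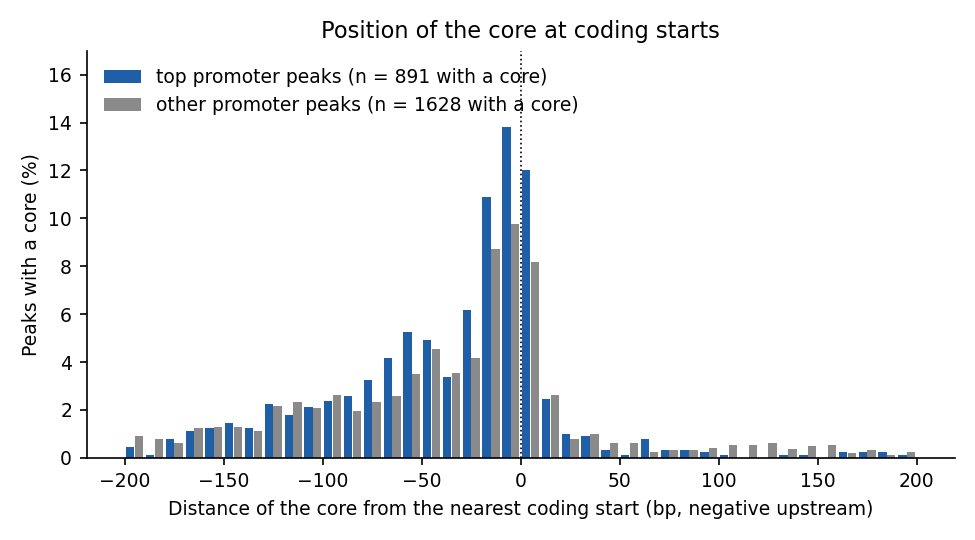
Distance of the core from the nearest coding start in bins of 10 bp (horizontal axis, bp, negative values upstream) against the share of peaks with a core (vertical axis, percent), for the 891 top and 1628 other promoter peaks that held one. The axis covers 200 bp on each side, and the dotted line marks the start. The cores crowd just upstream of the start in both groups, and −20 to +9 bp holds 36.7% of the cores of the top and 26.7% of those of the other promoter peaks.

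The top promoter peaks lay at starts of 1215 coding genes, 6.15% of the 19756 analysed. Some of them had starts on both strands within reach. Starts of 2 genes on opposite strands within 1 kb were found at 178 of them (17.8%, 15.5 to 20.3), against 14.3% (12.2 to 16.6) of the next 1000 and 11.4% (10.9 to 12.1) of all other promoter peaks. The order of the 2 starts was not checked, so these peaks, called bidirectional below, need not lie between divergent genes. The 1 kb was counted from the peak edges, and the top promoter peaks were wider than the others. Chromosome 19, which is dense in zinc finger genes, contributed the most, 102 of its 873 promoter peaks, and 35 of 508 ZNF genes had a top promoter peak (6.89%, 4.85 to 9.45). Over all chromosomes, 8.55% of promoter peaks were top promoter peaks. Of the 102 promoter peaks on chromosome 21, 19 were top promoter peaks (18.6%, 11.6 to 27.6), while chromosomes 11 and 14 gave 4.36% (2.92 to 6.24) and 3.53% (1.89 to 5.97).

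Genes of the respiratory chain were present but made up a small part of the whole. Of 79 genes for OXPHOS subunits and cytochrome c, 75 had a promoter peak and 11 a top promoter peak, a share of 13.9% (7.16 to 23.5) beside the 6.15% of all coding genes. Among genes with a promoter peak of any strength, the share was 14.7% for this list and 10% for all coding genes. By complex, these were 3 of 37 genes of complex I, 1 of 4 of complex II, 3 of 10 of complex III with cytochrome c, 1 of 11 of complex IV and 3 of 17 of complex V. Of the single complexes, only complex III with cytochrome c had an interval above the share of all coding genes (30%, 6.67 to 65.2). With fold enrichment as the ranking it had 1 gene in place of 3. These intervals, and those of the lists that follow, are not adjusted for the number of lists, and they are read against all coding genes, of which 61.2% had a promoter peak. The core nearest to the midpoint of the peak is shown in capitals, on the strand of the gene, for 5 of these genes. It is also shown for 3 genes of the regulator list described further on, among them AATF, the target of the siRNA. They are printed because they belong to the respiratory and biogenesis lists.
SDHA (chr5:218406-218435, plus strand): ccggtgtggtGCGCAGGCGCagtctgcgca
NDUFA8 (chr9:124922037-124922066, minus strand): ggatgcgcatGCGCAGGCGCcgtgtggcac
UQCRFS1 (chr19:29704070-29704099, minus strand): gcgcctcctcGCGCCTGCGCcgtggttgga
ATP5MC2 (chr12:54069890-54069919, minus strand): ggcccgggtcACGCATGCGCtgagccttcc
COX6A1 (chr12:120875732-120875761, plus strand): gaggtgcagaGCGCATGCTCtctcttgccc
ESRRA (chr11:64072893-64072922, plus strand): tcgtccgggcGCGCAGGCGCcgcccgcccc
AATF (chr17:35306135-35306164, plus strand): gcactcgcacGCGCACGCGCacacgcgccc
TFAM (chr10:60145097-60145126, plus strand): acgctctcccGCGCCTGCGCcaattccgcc
At NDUFA8 the core in capitals overlaps a perfect palindrome that begins in the lower-case bases before it.

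SDHA, the flavoprotein subunit of complex II, had the strongest of these peaks, with a −log10 q of 103 in siControl and 88.8 in siAATF and ranks of 23 and 54. It lay at a bidirectional start and held 4 cores. NDUFA8, a complex I subunit of the intermembrane space, had 92.0 and 80.1 and ranked 152 and 239. CYCS, the electron carrier cytochrome c, had 90.4 and 85.8 and rose from 194 to 99. Of the other 2 complex I genes, the accessory subunit genes NDUFA6 and NDUFA3, NDUFA6 ranked 369 and 589 and NDUFA3 976 and 1009. In complex III, the Rieske iron-sulphur protein gene UQCRFS1 ranked 422 and 882, and the small subunit gene UQCR11 716 and 370. COX6A1 of complex IV ranked 662 and 360. In the ATP synthase, the stalk subunit gene ATP5PO ranked 389 and 741, the c-ring gene ATP5MC2 469 and 318, and ATP5ME 842 and 818. Thus 5 of the 11 stood higher in siAATF and 6 lower, and 10 of the 11 had a counterpart in the siAATF top 1000. Of all 1000 top promoter peaks, 438 stood higher and 562 lower, and 861 had such a counterpart. Both −log10 q and fold enrichment, which are relative to each library, were lower in siAATF at each of the 11. Fold enrichment was lower at 946 of all 1000. The −log10 q of all 1000 had a median of 81.8 in siControl and 73.4 in siAATF, and the number with a lower value was not counted. The 11, like the rest, were selected by a high siControl −log10 q. Of the other loci that the study displayed, UQCRC1 ranked 1553, COX15 1972 and ATP5F1A 7807 in siControl, and were therefore outside the top promoter peaks.

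Among 10 regulators of mitochondrial biogenesis, 5 had a top promoter peak (50%, 18.7 to 81.3). The list included AATF, the target of the siRNA, which the study describes as a newly identified partner of NRF-1. The count was 2 at the 500 highest peaks and 1 with fold enrichment as the ranking. They were NRF1 itself and ESRRA, the oestrogen-related receptor that drives oxidative genes, with siControl ranks of 96 and 165, then GABPB1, a subunit of NRF-2, with 880, AATF with 948, and TFAM, which packages and transcribes mitochondrial DNA, with 965. Their −log10 q in siControl and siAATF was 95.5 and 85.5 for NRF1, 91.5 and 83.4 for ESRRA, 74.7 and 62.3 for GABPB1, 73.5 and 64.3 for AATF and 73.3 and 56.5 for TFAM. In siAATF, NRF1 ranked 106 and ESRRA 147, while AATF ranked 1095, GABPB1 1267 and TFAM 1679, so that the last 3 were outside the siAATF top 1000. These 3 began near the boundary, GABPB1 in the ninth 100 by siControl rank and AATF and TFAM in the last 100. Of all top promoter peaks there, 66 of the ninth 100 and 57 of the last 100 remained in the siAATF top 1000. Whether the 3 genes differed from their neighbours in rank was not tested. With TFAM, the genes for mitochondrial transcription and replication numbered 3 of 17 (17.6%, 3.8 to 43.4), the others being TFB2M (461 in siControl, 805 in siAATF) and the mitochondrial RNA polymerase POLRMT (642 and 905).

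Other mitochondrial gene groups gave shares whose intervals included that of all coding genes. Mitochondrial ribosomal protein genes numbered 9 of 78 (11.5%, 5.41 to 20.8), led by MRPL14 at 405 and MRPL45 at 477. OXPHOS assembly factors numbered 4 of 50, led by TMEM70, an assembly factor of the ATP synthase, at 87. The protein import genes TOMM7, TOMM20, PAM16 and TOMM34 made 4 of 31, heme synthesis 2 of 8 with UROS at 97 and ALAS1, the rate-limiting enzyme, at 852, the TCA cycle 2 of 22 with SDHA and DLD, and the SLC25 carriers 3 of 48. Cytosolic ribosomal proteins had a promoter peak at 73 of 84 genes but a top promoter peak at 2, RPL13A and RPL14 (2.38%, 0.29 to 8.34).

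Several groups with no direct part in respiration had shares of similar size or greater. DNAJ co-chaperones, which deliver clients to HSP70, had a top promoter peak at 8 of 42 genes (19%, 8.6 to 34.1), led by DNAJC28 at 103, DNAJB9 at 188 and DNAJA3 at 313. Ubiquitin-conjugating enzymes numbered 6 of 34 (17.6%, 6.76 to 34.5), led by UBE2D4 at 92, and 3 with fold enrichment as the ranking. Spliceosome proteins numbered 10 of 62 (16.1%, 8.02 to 27.7), led by PRPF39 at 133, PRPF40B at 142 and LSM1 at 149. Glycolysis gave 4 of 17 (23.5%, 6.81 to 49.9), namely GPI, the second enzyme of the pathway, at 30, LDHA at 543, ENO1 at 742 and PGAM1 at 957, but this count was 2 with canonical transcripts only, 1 at the 500 highest peaks and 0 with fold enrichment as the ranking. DNA replication factors gave 6 of 43, with the polymerase delta subunit gene POLD3 at 99 and the licensing factor gene CDT1 at 252, and homologous recombination and Fanconi genes gave 3 of 23, XRCC2, SLX4 and PALB2. Genes for nuclear RNA polymerase subunits, mitotic regulators and translation initiation factors had 4 each, of 31, 37 and 40. Nuclear pore genes, autophagy genes, proteasome subunits and kinesins had 2 each, of 27, 18, 34 and 39, and mitochondrial and cytosolic tRNA synthetases 1 each, of 17 and 18.

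Families of genes used in few tissues had few or no top promoter peaks, and for all but the olfactory receptors the interval included the 6.15% of all coding genes. None of 44 collagen genes (up to 8.04%), none of 37 glutamate and GABA receptor subunit genes (up to 9.49%) and none of 390 olfactory receptor genes (up to 0.941%) had a top promoter peak, and of 39 HOX genes only HOXC4 did (2.56%, 0.0649 to 13.5). A promoter peak of any strength was present at 19 of the collagen, 11 of the receptor, 1 of the olfactory receptor and 21 of the HOX genes. In all, 138 of the 1214 gene symbols at the top promoter peaks (11.4%) belonged to any of the 34 lists, so the lists describe a minor part of the genes.

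**Figure D4:**
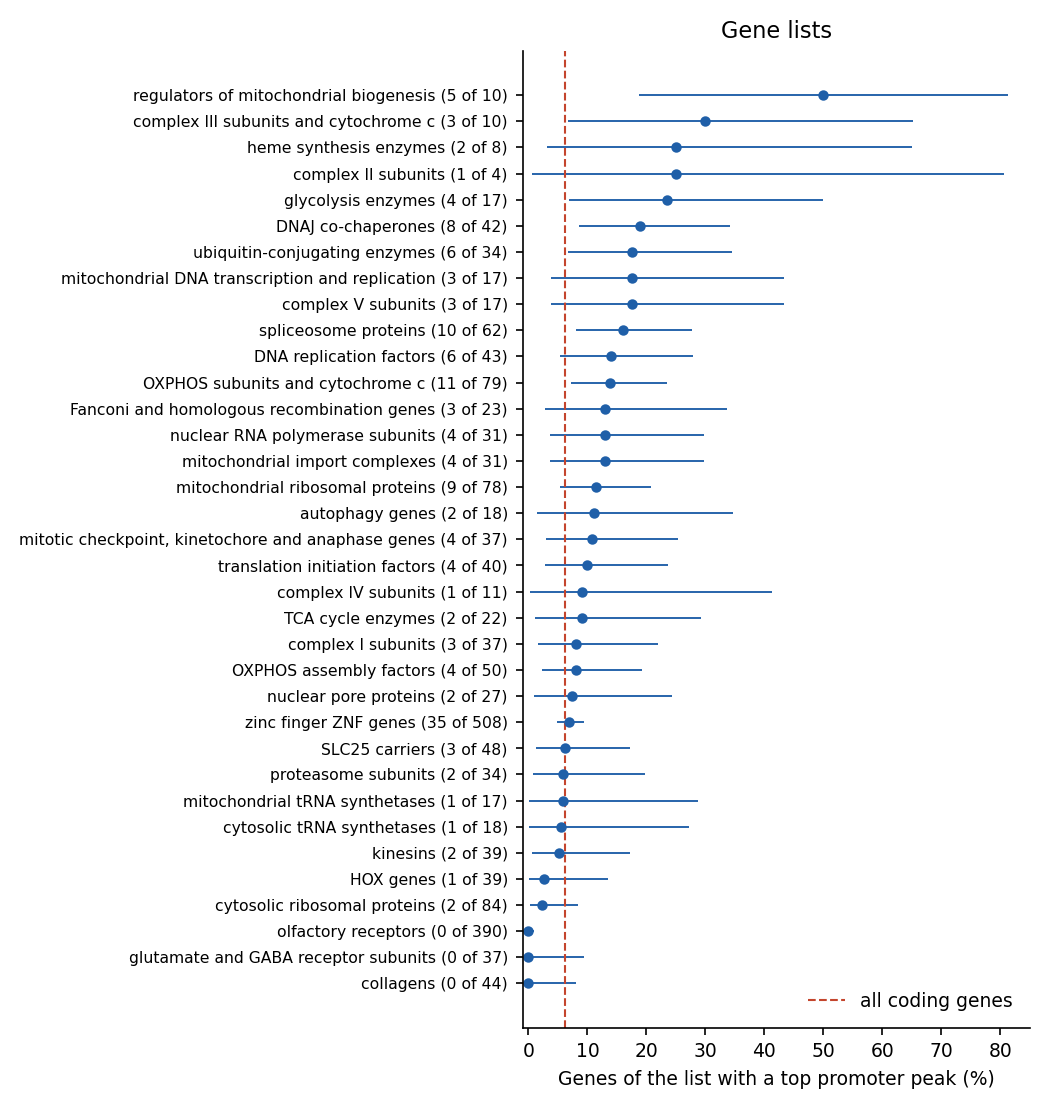
Share of the genes of each list with a top promoter peak within 1 kb of a start (horizontal axis, percent), one list a row with its counts. Points are shares, horizontal lines exact 95% intervals for counting error, and the dashed line marks the 6.15% of all coding genes. Regulators of mitochondrial biogenesis, a list that includes AATF, stand highest with 5 of 10 (1 of 10 with fold enrichment as the ranking). OXPHOS subunits and cytochrome c with 11 of 79 lie near DNA replication factors with 6 of 43, and 3 lists of tissue-restricted families are at 0.

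All 1000 top promoter peaks had an overlapping peak in the siAATF list. The share over all siControl promoter peaks was 96.1%, and all of the next 1000 had one as well, so retention did not set the top promoter peaks apart. The counterparts were in almost the same place, with midpoints a median of 18 bp apart and a siAATF width that was a median of 36 bp greater. Of the counterparts, 861 were among the 1000 siAATF promoter peaks of highest −log10 q, as were 8.55% of all siControl promoter peaks, and 999 were among the first 2000. By siControl rank, all of the first 100 and of the second 100 remained in the siAATF top 1000, as did 97 of the fifth 100, 92 of the sixth, 72 of the eighth and 57 of the last 100. The losses therefore lay mainly among peaks that began near the boundary.

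**Figure D5:**
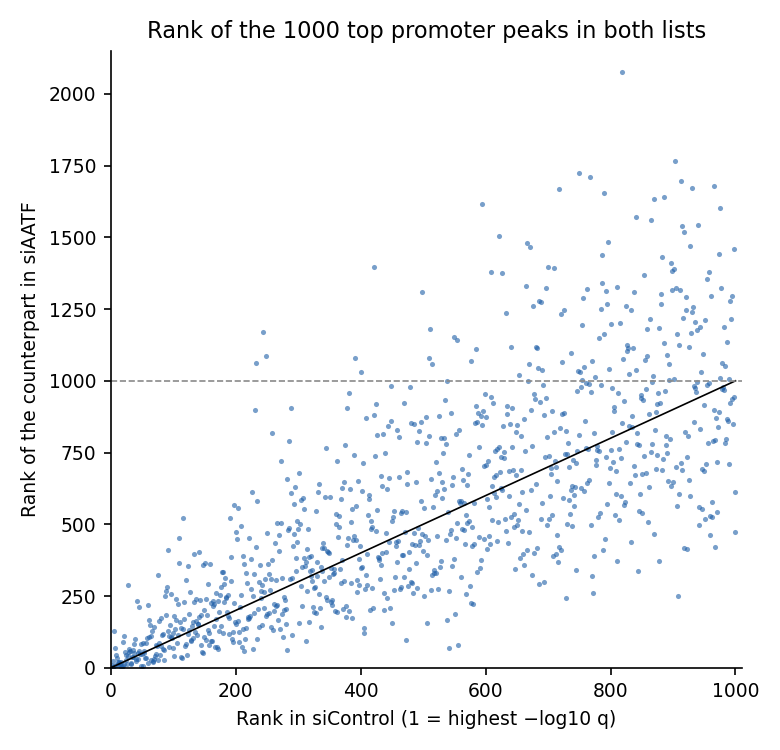
Rank of each of the 1000 top promoter peaks in siControl (horizontal axis) and of its counterpart in siAATF (vertical axis), where 1 is the highest −log10 q. The solid line marks equal ranks and the dashed line the siAATF rank of 1000. Of the points, 861 lie at or below the dashed line, and the spread around the solid line widens towards the lower-ranked peaks on the right.

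The ranks shifted modestly between the lists. The median of the siAATF rank minus the siControl rank was 23.5, with a range of −657 to 1259. In siAATF, 562 peaks stood lower and 438 higher, while 49.4% of all siControl promoter peaks stood lower. A choice by high siControl values lowers ranks elsewhere by construction. When the 1000 promoter peaks of highest siAATF −log10 q were looked up in siControl instead, they stood lower there by a median of 34.5. The 861 of them that were in both are the pairs already counted, so that number could not differ. The −log10 q of the top promoter peaks had a median of 81.8 in siControl and 73.4 in siAATF (50.3 to 104), values that are relative to each library. Fold enrichment had a median of 8.25 in siControl and 7.62 in siAATF and was lower in siAATF at 946 of the 1000. It was lower in siAATF at 68.1% of all siControl promoter peaks that had a counterpart, at 884 of the next 1000, and at 902 of the peaks chosen by their siAATF values. Because the depth and background of the libraries were unknown, a difference in NRF-1 occupancy and a difference in library quality cannot be told apart here.

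Few peaks moved far, 65 by more than 500 ranks down and 7 by more than 500 ranks up. MRGBP, a subunit of the NuA4 acetyltransferase complex, fell most, from 818 to 2077, with a −log10 q of 75.6 in siControl and 50.3 in siAATF. It was the only top promoter peak outside the siAATF top 2000. NAA25, the auxiliary subunit of an N-terminal acetyltransferase, went from 594 to 1617, and WDFY2, an endosomal protein, from 421 to 1395. In the other direction, WWOX, an oxidoreductase with WW domains, which ranked 908 in siControl, had the change in rank of −657, with a −log10 q of 74.1 and 79.8. TUBG2, a gamma-tubulin gene, went from 968 to 421, and ZSCAN32 from 1000 to 475. Without replicates, such single moves have no error to be set against.

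The number of cores was set beside retention. Of the 243 top promoter peaks with at least 2 separate cores, 93.8% (90 to 96.5) had a counterpart in the siAATF top 1000, against 84.3% (81.1 to 87.1) of the 598 with 1 core and 81.1% (74.2 to 86.9) of the 159 without. The peaks with more cores also began higher, with a median siControl rank of 396, against 522.5 and 575, and the part of this in the shares was not tested. Bidirectional peaks and the rest were retained alike within their intervals, 87.6% (81.9 to 92.1) and 85.8% (83.2 to 88.1).

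Values at 4 of the top promoter peaks may be uncertain because identical stretches of 40 bases occur in the central 300 bp of another of them. These are the pair POLR2J3 and POLR2J, with siControl ranks of 1 and 34, and the pair PRKRIP1 and POM121, with 542 and 926. Aligned reads may have been divided within each pair. Copies elsewhere in the genome were not searched for, so other peaks may be affected as well.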

How the data were processed

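NRF-1 peaks in U251 cells under siControl and siAATF were analysed, 1 list per condition. Chromatin was prepared by ChIPmentation, in which a transposase inserts the sequencing adapters. Per the labels, the authors aligned reads to hg19 with Bowtie2 and called broad peaks with MACS2, and the methods place these steps in a pipeline written for ATAC-seq with default settings, which can shift or extend reads. No input library was named, and whether the duplicates were pooled was not stated. The positions, the display score, the fold enrichment (a ratio over local background) and the −log10 p and −log10 q were deposited by the authors. In this mode they are averages over the region, not summit values. Depth is unknown.

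Promoters were defined from GENCODE release 44 lifted to GRCh37, as 1 kb either side of coding starts. Ties in −log10 q were broken by −log10 p. A counterpart was the overlapping siAATF peak (at least 1 base) of highest −log10 q. Sequence came from the GRCh37 primary assembly. The palindrome was searched with up to 1 mismatch in 300 bp. Python 3.11.15, numpy 2.4.6, scipy 1.17.1, pandas 2.3.3, pysam 0.24.0 and matplotlib 3.10.9 were used, and the steps were tested on simulated data. Named genes were the 10 highest peaks, the 3 on each side of the boundary, the 3 that rose or fell most in rank, the 5 highest without a core, the 3 with the most cores, OXPHOS subunits, regulators, loci the study displayed and the leading members of each list. Other list genes, the 4 peaks without a related word and the 4 with shared stretches were named after their values were seen. The peaks and the 34 gene lists were chosen with earlier results of these data known.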

Additional observations from a re-analysis of the deposited data

How the results depend on the processing

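The top promoter peaks depended little on the promoter definition and strongly on the ranking. Ranking by fold enrichment kept 168 of the 1000. With 500 and 2000 peaks in each list, the share with a counterpart in the siAATF top was 81.6% and 93.3%, and with fold enrichment as the ranking 67.9%. By fold enrichment the median siAATF rank minus the siControl rank was 266.5 in place of 23.5. For the peaks chosen by their siAATF values it was 85.5, for the next 1000 it was 88, and for all promoter peaks with a counterpart 7 (comparisons added after seeing the data). The share with the core was 16.7% for exact matches, 89.1% in the whole peak, 73.2% in 200 bp, 88.6% in 500 bp, 87.2% for the 500 highest and 73.4% for the 2000 highest peaks. Canonical starts alone moved the median distance to a start to 71 bp. OXPHOS genes numbered 7 at the 500 highest and 21 at the 2000 highest peaks. Of the 173 alternative values for other words, composition and single lists, 78 moved, mostly with the number of peaks taken. These values are counts, shares and ratios that cannot change sign, so a reversal could not have been seen. Ranking by −log10 p, from which −log10 q is computed, kept all 1000 and is hardly a separate check. The main values stayed in place with ranking among all peaks, with promoter windows of 500 bp and 2 kb and with reciprocal overlap. A counterpart −log10 q of at least 5 also left them in place. No paired analysis was possible because each condition had 1 list. The unknown depth limits every comparison of levels between the lists.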
